A study of Mus musculus with 2 samples.

Results

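The genes described here are those of the Janus kinases and of the STAT proteins on the list Jak1, Jak2, Jak3, Tyk2, Stat2, Stat3, Stat5a, Stat5b and Stat6, which are 9 of the 21938 protein-coding genes placed on chromosomes in the GENCODE M21 basic annotation of GRCm38 (mm10). They were chosen by name, with earlier results of these data known. Each was searched for YY1 peak summits within 1000 bp of a transcript start, inside the gene, and nearest to it. The peaks came from 1 YY1 ChIP-seq library, in which DNA bound by the transcription factor YY1 was recovered with an antibody and sequenced, and were called by the authors against 1 background library. The cells were muscle stem cells (MuSCs) pooled from Ctrl mdx mice of the genotype Pax7CreERT2/R26YFP; Yy1+/+; mdx. These mice carry the dystrophin mutation of the mdx strain, a Cre recombinase and a YFP reporter that mark Pax7-expressing cells, and intact Yy1. The paper calls the cells freshly isolated, whereas the labels describe a culture medium and wild-type MuSCs, and the paper was followed here. The age of these mice and whether they had received tamoxifen are not given in the sources used here. There was no second condition and no replicate, so no value carries an error between mice, and the identity of the cells could not be checked against marker genes because a list of binding peaks holds no expression values.

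The list held 4681 peaks, and their most frequent background level corresponds to a library of an estimated 13357693 fragments. The deposited fold enrichment and p-value together gave, for every peak, how many DNA fragments covered its summit and what number the local background predicted there. Fold enrichment is not the plain ratio of these numbers, since the same small count, given with the processing below, is added to both. At the most frequent background, 1.54 fragments, a site needed 8 fragments to pass the authors' p-value limit of 0.0001, and a site with 7 fragments, or a fold enrichment of 3.15, stayed unlisted. A gene without a peak was therefore one at which binding was not detectable at this depth.

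The JAK-STAT pathway carries signals of cytokines and growth factors to the nucleus. A cytokine brings its receptor chains together, the Janus kinases attached to them phosphorylate the receptor and a STAT protein, and the STAT dimer then binds DNA and activates genes, among them those of the SOCS proteins that switch the pathway off again. In MuSCs, STAT3 is known to act downstream of interleukin-6 family cytokines in proliferation and differentiation. YY1 is a zinc-finger protein that binds many CpG-rich promoters as well as enhancers.

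A YY1 summit lay in a promoter window of 3 of the 9 genes, Jak2, Stat3 and Stat5b, which compares with 18.8% of all protein-coding genes. By family these were 1 of 4 kinase genes and 2 of 5 STAT genes. The reference sequence under these peaks is shown because the 3 summits are the places where YY1 was found at this gene group. For Jak2 and Stat3 it is the stretch of 100 bp to either side of the summit, so that the summit is base 101, and for Stat5b it is the part of the peak that lies upstream of the start, with the summit at base 121. Each sequence is written on the strand of its gene, upstream of every annotated exon, and capitals mark CG dinucleotides.
Jak2, chr19:29251445-29251645, plus strand: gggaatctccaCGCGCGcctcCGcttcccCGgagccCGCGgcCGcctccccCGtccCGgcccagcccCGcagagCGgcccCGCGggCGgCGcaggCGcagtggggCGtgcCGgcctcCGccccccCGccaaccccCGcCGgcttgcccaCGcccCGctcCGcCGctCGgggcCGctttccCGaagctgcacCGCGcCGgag
Stat3, chr11:100939663-100939863, minus strand: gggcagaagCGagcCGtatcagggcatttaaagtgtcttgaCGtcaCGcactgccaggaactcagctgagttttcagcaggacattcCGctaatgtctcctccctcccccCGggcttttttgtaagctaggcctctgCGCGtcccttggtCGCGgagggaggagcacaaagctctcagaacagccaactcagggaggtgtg
Stat5b, chr11:100850725-100850881, minus strand: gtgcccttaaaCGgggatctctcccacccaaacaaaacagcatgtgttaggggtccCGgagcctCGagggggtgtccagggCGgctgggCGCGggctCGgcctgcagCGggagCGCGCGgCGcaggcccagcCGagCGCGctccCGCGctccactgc

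The Jak2 stretch held 33 CG dinucleotides and 83.1% G or C. The Stat5b stretch, of 157 bases, held 17 and 72.0%. Fewer were present at Stat3, where a stretch as long as that of Jak2 held 10 and 57.2% of its bases were G or C. Across the whole called peaks the share of G and C was 81.0% at Jak2, 78.2% at Stat5b and 63.5% at Stat3, and the median over all promoter peaks was 70.0%.

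Jak2, the kinase used by the receptors of erythropoietin, growth hormone and interferon-gamma among others, is on the plus strand of chromosome 19 from 29251828 to 29313080. Its peak spanned 29251294 to 29252042, with the summit at 29251545, 283 bp upstream of the first start. The summit held 22 fragments over a local background of 1.54, a fold enrichment of 9.07 (95% exact Poisson interval 5.83 to 13.5, counting error only). MACS2 gave it an exact Poisson p = 1.72e-19 and q = 1.87e-14. Of the 3971 promoter peaks of the library 97.9% had a lower fold enrichment, which placed it at rank 72.

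Stat3, the main STAT of the interleukin-6 family, occupies bases 100885098 to 100939540 of chromosome 11 and is read from the minus strand. The peak from 100939271 to 100939905 had its summit at 100939763, 223 bp upstream of the first of 4 annotated starts, and covered all 4. It had 26 fragments over 2.34, the largest number of fragments of the 3 peaks, and a fold enrichment of 8.09 (interval 5.39 to 11.7). The caller's p was 8.62e-20 with q = 9.81e-15, and 95.3% of the promoter peaks had a lower fold enrichment.

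Stat5b, which transmits growth hormone signals, is read in the same direction on the same chromosome, from 100850724 down to 100780731. Its peak lay from 100850473 to 100850881 with the summit at 100850761, 37 bp upstream of the start. With 11 fragments over 1.98 it had the lowest value of the 3, a fold enrichment of 4.03 (interval 2.18 to 6.95), and 14.9% of the promoter peaks were lower. Its p was 1.20e-06 and its q 0.00340. A limit of 5 on the fold enrichment removed this peak, which left 2 of the 9 genes against 11.1% of protein-coding genes.

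The counting intervals of Jak2 and Stat3 overlapped over most of their width. The upper bound for Stat5b, 6.95, lay below the fold enrichment of both but above their lower bounds. The differences between the 3 peaks were not tested. All 3 summits lay on the upstream side of the start, where 46.0% of all promoter summits lay, and each peak extended over the first start into the gene. The peaks were 749, 635 and 409 bp wide at Jak2, Stat3 and Stat5b, while the median of all promoter peaks was 363 bp. None of the 3 summits lay in the promoter window of another gene.

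**Figure D1:**
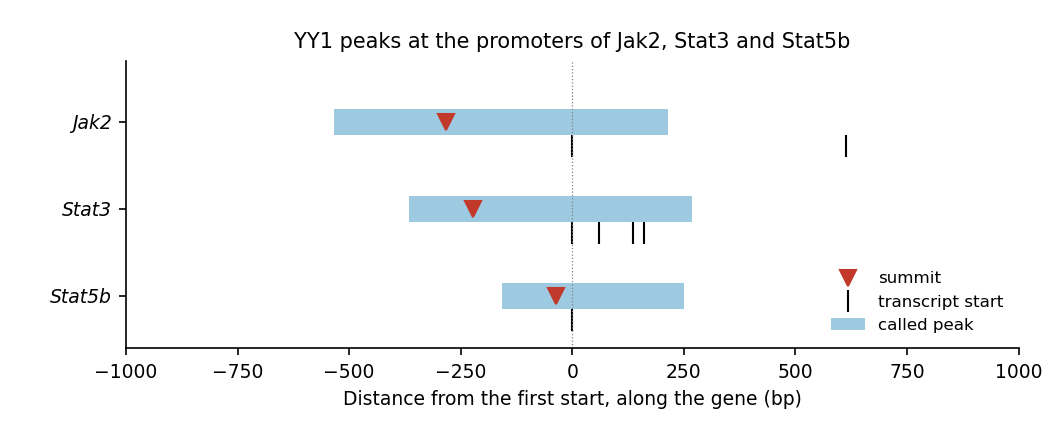
Called peaks (bars), summits (triangles) and transcript starts (ticks) at Jak2, Stat3 and Stat5b, with the distance from the first start in bp along the gene on the x axis. The summits stand 283, 223 and 37 bp upstream of the first start and every bar reaches past it.

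The other 6 genes, Jak1, Jak3, Tyk2, Stat2, Stat5a and Stat6, had no summit in a promoter window. These genes lie at chr4:101152367-101265282 (Jak1, minus strand), chr8:71676296-71690575 (Jak3, plus), chr9:21104068-21131243 (Tyk2, minus), chr10:128270559-128292849 (Stat2, plus), chr11:100859351-100885169 (Stat5a, plus) and chr10:127642986-127660957 (Stat6, plus). None of the 9 genes held a summit between its first and last base. Of protein-coding genes 13.7% did, and 2.05% did outside their own promoter windows. At such shares, finding none among 9 genes does not set them apart. Counting any overlap of a peak with the gene gave 3 of 9, the same genes Jak2, Stat3 and Stat5b, through the part of each promoter peak that reaches past the start, and 18.8% of protein-coding genes (4117) were overlapped in this way. The gap around the limit of 1000 bp was wide: the farthest summit inside it was that of Jak2 at 283 bp, and the nearest outside it belonged to Stat5a at 8590 bp.

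Stat5a, the near twin of Stat5b that is best known for prolactin signalling, was thus closest to a peak, and that peak was the one at the Stat5b promoter. For Tyk2, the kinase of type I interferon receptors, the nearest summit lay 18.9 kb upstream, at the promoter of the adjacent gene Cdc37, which encodes a kinase cochaperone (fold enrichment 4.89). Stat6, the STAT of interleukin-4 and interleukin-13, had its nearest summit 23.9 kb downstream of the start, 5.93 kb beyond its last base, at the paired starts of Nab2 and Nemp1 (6.08). At Stat2, the interferon STAT that pairs with IRF9, the distance was 38.3 kb to a peak at Timeless (5.19). Jak3, the kinase of receptors with the common gamma chain, was 65.2 kb from a peak at Colgalt1 (4.80). The most distant was Jak1, which serves the largest range of cytokine receptors, with a summit 91.1 kb upstream at E130102H24Rik (6.39).

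Among all protein-coding genes the median distance from a start to the nearest summit was 93.7 kb, and among those without a promoter summit 150 kb. All 6 unbound genes were nearer than either value, Jak1 narrowly in the first case, with 49.5% of coding genes closer to a summit than it was. The median number of summits within 100 kb of the start of a coding gene was 1, and the 9 genes had from 1 to 5, with the highest number at Stat3.

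**Figure D2:**
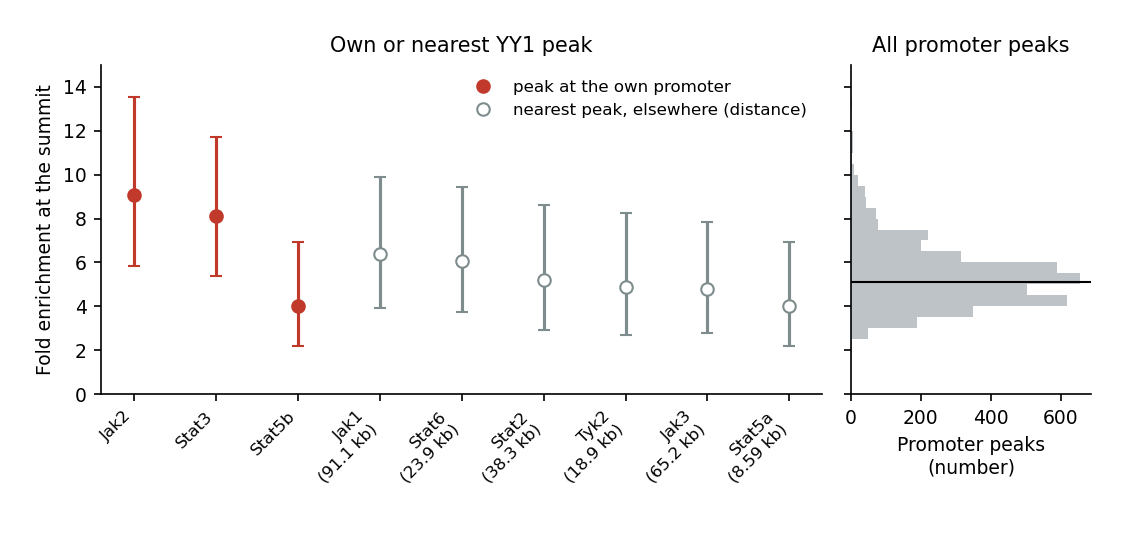
Fold enrichment at the summit for the own promoter peak of Jak2, Stat3 and Stat5b (filled) and for the nearest peak of the other 6 genes (open, with its distance), with 95% exact Poisson intervals, beside the number of all 3971 promoter peaks at each fold enrichment and their median (line, 5.13). Jak2 and Stat3 stand above that median with their whole interval, and Stat5b below it with an interval that includes it.

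Stat3, Stat5a and Stat5b are neighbours on chromosome 11. Stat5a and Stat3 point towards each other and overlap by 72 bp at their 3' ends, and the starts of Stat5a and Stat5b stand back to back 8.63 kb apart. The Stat3 and Stat5b summits, 89.0 kb apart, enclosed Stat5a, and no summit was listed between them. Upstream of Stat3, 3 summits lay within 31 kb, at or in Cavin1, a gene for a caveolae coat protein. Their fold enrichments were 4.37, 4.78 and 4.16, so that Stat3 had the highest value in this stretch. Beyond the far end of Stat5b the next summit, of fold enrichment 5.13, lay in Hcrt, 88.8 kb from the Stat5b start. Stat6 and Stat2 share chromosome 10 but their starts are 628 kb apart. Downstream of Stat6, 2 neighbouring summits had fold enrichments of 6.08 and 5.93, and a further summit at Zbtb39 lay 96.3 kb away (6.39).

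**Figure D3:**
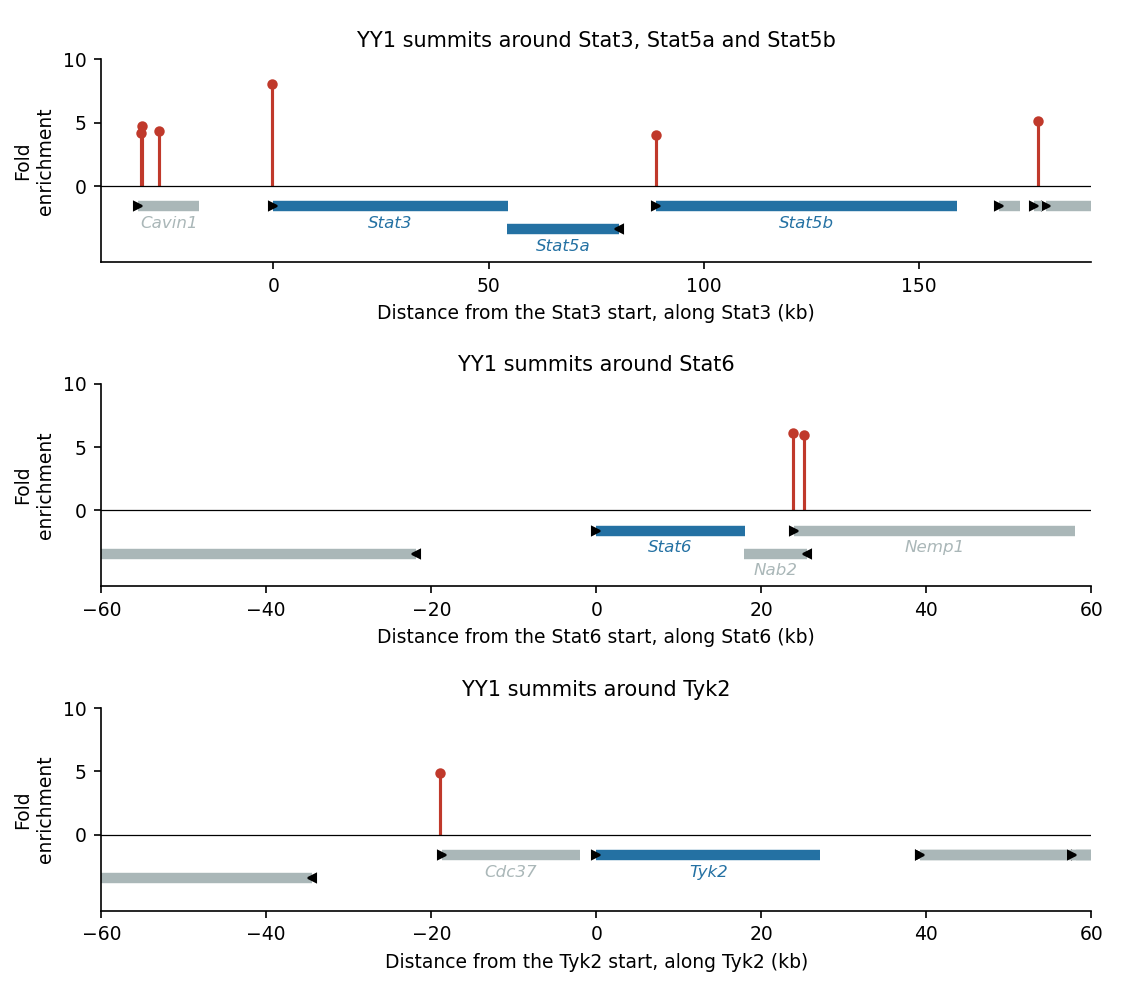
YY1 summits (stems, height is fold enrichment) around the Stat3, Stat5a and Stat5b cluster, Stat6 and Tyk2, with the distance in kb from the start of Stat3, Stat6 or Tyk2 along that gene; bars are protein-coding genes, with the listed genes in blue, transcription to the right in the upper row and to the left in the lower, and arrowheads at starts. Stems stand at the starts of Stat3 and Stat5b and none at those of Stat5a, Stat6 and Tyk2, whose nearest stems are 8.59, 23.9 and 18.9 kb away.

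Base composition differed between the promoters. Within 1000 bp of the gene start, Jak2 had 168 CpG dinucleotides, Stat5b 145, Jak1 116 and Stat3 80. Stat2 had 69, Stat6 68, Jak3 62, Tyk2 55 and Stat5a 37. Over all protein-coding genes the median was 109 for those with a promoter summit and 46 for those without. As CpG was counted at the gene start only, a summit at another start of the same gene can lie in sequence that was not counted. A promoter summit was present at 2.71% of coding genes with 0 to 49 CpG, 19.5% with 50 to 99, 42.0% with at least 100 but under 150, and 60.2% with 150 or more. In these classes the listed genes with a summit were 0 of 1, 1 of 5, 1 of 2 and 1 of 1. Jak2 and Stat5b had more CpG dinucleotides than 96.8% and 93.1% of coding genes, and had peaks in classes where 60.2% and 42.0% of genes did. Stat3 had its peak in a class where 19.5% did. Jak1, richer in CpG than 84.0% of coding genes, had none. The part of composition in the presence of peaks was not tested.

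To show this contrast, the 157 bases just upstream of the start are given for 2 genes without a peak, Stat5a and Jak1, in the same way as above for Stat5b.
Stat5a, chr11:100859194-100859350, plus strand: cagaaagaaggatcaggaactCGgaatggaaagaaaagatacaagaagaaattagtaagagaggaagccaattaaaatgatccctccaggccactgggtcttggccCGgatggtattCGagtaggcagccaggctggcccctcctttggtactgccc
Jak1, chr4:101265283-101265439, minus strand: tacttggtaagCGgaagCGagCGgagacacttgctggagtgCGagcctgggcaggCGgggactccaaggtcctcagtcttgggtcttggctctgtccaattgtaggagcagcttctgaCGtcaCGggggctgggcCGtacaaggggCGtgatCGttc

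The Stat5a stretch held 3 CG dinucleotides and 49.7% G or C, against 17 in the stretch of the same length at Stat5b. The Jak1 stretch held 10 and 61.1%. Of the 50-base stretches taken every 10 bases from each promoter window, 0% occurred elsewhere in the genome for 7 of the 9 genes, 0.51% for Jak1 and 4.59% for Tyk2. In the 3 called peaks the share was 0%.

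**Figure D4:**
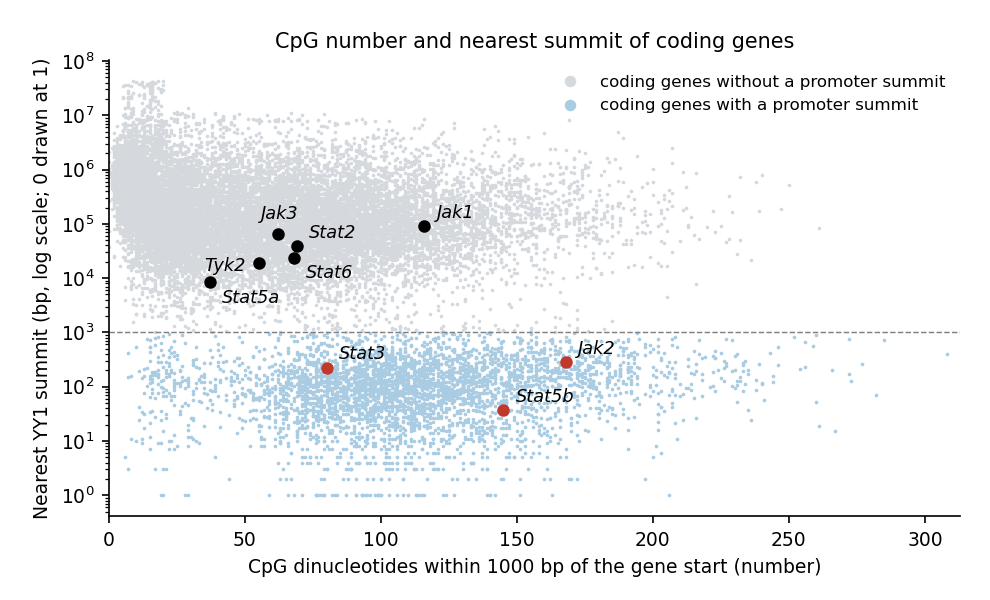
Number of CpG dinucleotides within 1000 bp of the gene start against the distance to the nearest YY1 summit (log scale), for all protein-coding genes with (pale blue) or without (grey) a promoter summit, and for the listed genes with (red) or without (black) one; the dashed line is the limit of 1000 bp. Jak2 and Stat5b lie below the line with 168 and 145 CpG, Stat3 with 80, and Jak1 lies above it with 116.

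The binding motif that the study names for YY1 is AANATGGC, and either strand could hold it. It was present no farther than 100 bp from the summit at 6.63% of all peaks, at 7.35% of promoter peaks and at none of the 3 peaks of Jak2, Stat3 and Stat5b, nor did it occur elsewhere in these peaks. The shorter core ATGGC, present at 29.9% of all peaks, was also absent within 100 bp of the 3 summits. In the promoter windows of 2001 bp the motif occurred at 29.5% of coding genes and at 3 of the 9. At Stat3 it read AAGATGGC (chr11:100940426-100940433), 889 bp upstream of the start and 666 bp from the summit, outside the peak. At Jak2 it read AAAATGGC (chr19:29252651-29252658), 826 bp downstream of the start and 1109 bp from the summit. Jak3, without a peak, had AACATGGC (chr8:71677093-71677100) 800 bp downstream of its start. The motif was thus in the promoter windows of 2 genes with a peak and 1 without.

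One further word was searched after the sequences above had been seen. The stretch at Stat3 contains TGACGTCA, the palindrome bound by CREB and ATF factors, at chr11:100939818-100939825, 58 bp from the summit. The same word lies at chr4:101265317-101265324, 38 bp upstream of the start of Jak1, which has no peak. It occurred within 100 bp of the summit at 2.27% of all peaks and in 4.02% of the coding promoter windows. The word TTCNNNGAA, to which STAT dimers bind, was found within 100 bp of the summit at 2.74% of all peaks, within 200 bp at 6.26%, and in none of the 3 peaks.

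Around these 9 genes, a list of 78 further genes of the pathway was examined by role, and 30 of them had a promoter summit, against 18.8% of protein-coding genes. The list was chosen with earlier results of these data known, so these counts are descriptions and no independent measure of enrichment. A limit of 5 on the fold enrichment left 15 genes, against 11.1% of protein-coding genes. Inhibitors made up 5 of them, and Il11, Il6st and Lifr were the only ligand and receptor genes left. The partners left were Stam2, Crebbp and Stam, and the targets Irf1, Bcl2l1, Pim1 and Bcl6. Without the limit, the genes with a summit were 2 of 16 ligand genes, 5 of 26 receptor genes, 11 of 18 genes of inhibitors, 5 of 8 genes of partner proteins and 7 of 10 target genes. The differences between roles were not tested, and the receptor genes were close to the share of all coding genes. Within 1000 bp of the start of the gene record, the median number of CpG dinucleotides was 30 for the ligand genes, 60 for the receptors, 123 for the inhibitors, 108 for the partners and 117.5 for the targets. That start is not always the one with the peak: at Lifr and Pias1 the summit lay 38878 and 6891 bp from it, and the peaks alone held 90 and 83 CpG dinucleotides, against 20 and 7 around the gene start. The part of CpG in the counts was not tested.

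Of the ligand genes, Il11 had a summit 850 bp from a start (fold enrichment 5.13), and Epo had a peak of 3.64 that it shares with Gnb2. At the receptor genes, the peaks at Lifr and Il6st had similar fold enrichments of 7.10 (interval 4.30 to 11.1) and 7.06 (4.44 to 10.7), with 17 and 20 fragments. These encode the LIF receptor and gp130, the shared signalling chain of the interleukin-6 family. Ghr, the growth hormone receptor, had a peak of 4.70 with its summit 17 bp from the nearest transcript start and 287 bp from the gene start, and Ifngr1 one of 4.44. The 21 receptor genes without a promoter summit included chains that serve Jak2, Stat3 or Stat5b, such as Il6ra, Osmr, Epor and Prlr.

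Among the inhibitors, Ptpn2, a phosphatase of Janus kinases and STATs, had the highest fold enrichment of the whole pathway list, 9.46. Its summit held 23 fragments over 1.54, with an interval of 14.6 to 34.5 for the number of fragments. Next came Socs4 with 8.74, at a peak shared with Wdhd1, Socs2 with 7.49 and Pias1, a SUMO ligase that restrains STATs, with 5.38. Socs3, the feedback inhibitor of the gp130 receptor, had a peak of 4.29 (interval 2.56 to 6.81) with its summit 211 bp upstream of the nearest transcript start and 650 bp from the gene start. Socs3 was singled out after its value was seen. Inhibitors without a promoter summit included Cish, 258 kb from one.

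Stam2 had the highest value of the partner genes, 9.26, followed by Crebbp with 6.31, Stam with 5.30 and Grb2 with 4.70. The lowest, Ep300, had a fold enrichment of 2.69 and a MACS2 q of 0.0701, and a limit of 0.05 on q removed it. STAM proteins and GRB2 are adaptors at the receptor, and CREBBP is a coactivator of STATs. The 3 partners without a promoter summit were Irf9, Nmi and Sh2b1. Of the target genes, Irf1 had a fold enrichment of 7.10, Bcl2l1 6.31, Pim1 5.93 and Bcl6 5.76, genes for a transcription factor, a survival protein, a kinase and a repressor in that order. Targets without a promoter summit were Cdkn1a, Ccnd1 and Myod1, of which Cdkn1a had a summit 1020 bp from its nearest transcript start, just outside the window. The motif AANATGGC lay within 100 bp of the summit at 1 of the 33 promoter peaks of these genes, against 7.35% of all promoter peaks. This was at Pias3, where it read AAGATGGC (chr3:96697169-96697176) and was 35 bp from the summit. Farther out in the called peaks, AAGATGGC also lay at Pias1, Crebbp and Ep300, 162, 134 and 317 bp from the summit.

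**Figure D5:**
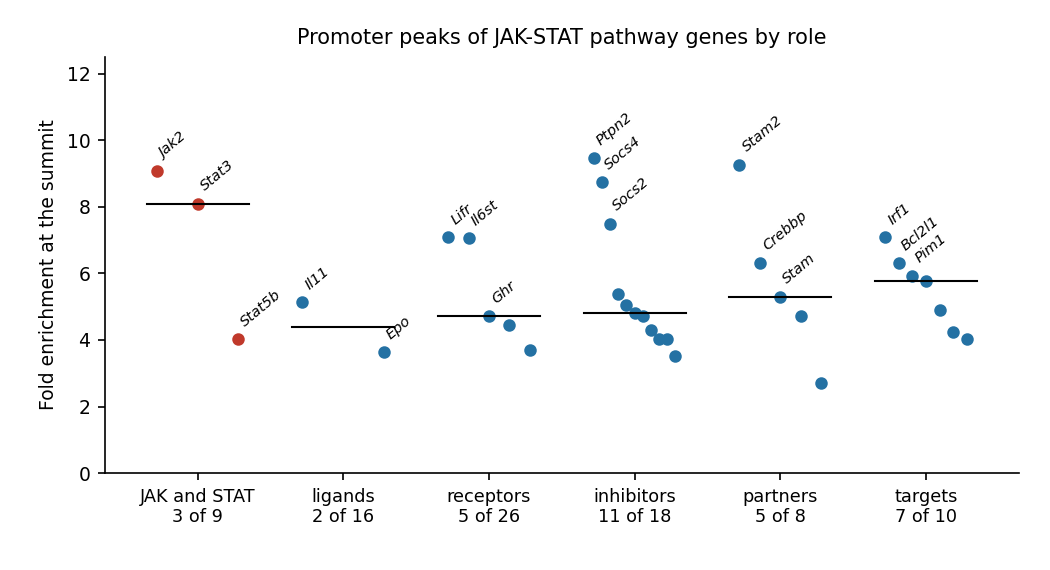
Fold enrichment of the strongest promoter peak of each gene that had one (points), for the 9 JAK and STAT genes (red) and for the 78 pathway genes by role (blue), with the median of each group (line) and the number of genes with a promoter peak of all genes in the group under each name. Jak2 with 9.07 and Ptpn2 with 9.46 stand at similar heights, and the medians of the 5 roles lie between 4.38 and 5.76.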

How the data were processed

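According to the paper's methods and the labels, the authors aligned preprocessed reads by bowtie2 (build mm10), left out redundant reads and ran MACS2 on the YY1 library against a background library, called input in the labels and IgG in the paper. The deposited fold enrichment is a ratio of the fragments at the summit to the local background, with 1 added to both numbers. MACS2 also wrote the deposited −log10 values of p and q, that is, a p-value and a q-value per peak. Tool versions are not given in the sources used here. Fragment numbers were recovered from fold enrichment and p-value, with all 4681 peaks matched within 0.001. Summits were placed by GENCODE M21 basic transcript starts, and sequences were read from the RefSeq GRCm38.p6 assembly. Intervals are 95% exact Poisson and cover counting error only. No set test or comparison of groups was made, since there is 1 library.

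The genes, the pathway list and the alternatives were chosen with earlier results of these data known. Pathway genes named are up to 4 per role with the highest fold enrichment, and neighbours are genes with a promoter summit within 100 kb. All other pathway genes and Hcrt were named after their values were seen. Alternatives were other promoter windows, limits on q and fold enrichment, placement by overlap, other start sites and other motif settings. Placement, motif search and fragment recovery were tested on simulated data. Python 3.11.15, numpy 2.4.6, pandas 2.3.3, scipy 1.17.1, numba 0.67.0 and matplotlib 3.10.9 were used.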

Additional observations from a re-analysis of the deposited data

How the results depend on the processing

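Jak2 and Stat3 had a promoter summit and the 6 genes Jak1, Jak3, Tyk2, Stat2, Stat5a and Stat6 had none under all 11 alternatives, which were other windows, limits, placements and start sites. Many of these could not have given the 6 genes a summit, because narrower windows, fewer starts and stricter limits only remove summits. The window of 2000 bp could add none either, since their nearest summit lay 8590 bp from a start. No looser peak list was tried. The comprehensive GENCODE set and RefSeq transcripts were chosen after the data were seen. With a fold enrichment of at least 5, Stat5b lost its peak, the pathway genes with a promoter summit fell from 30 to 15 and the protein-coding genes from 4119 to 2445. The other alternatives gave from 24 to 32 pathway genes and from 3201 to 4237 protein-coding genes. Counting any overlap of a peak with the gene raised the listed genes with a peak inside from 0 to 3. AANATGGC was found neither within 50 or 100 bp of the 3 summits nor elsewhere in the peaks, and ATGGC, searched within 100 bp only, was not found there. No paired analysis was possible because the peaks come from a single YY1 library, which also leaves no replicate to drop. The depth, an estimated 13357693 fragments, limits what a missing peak shows: up to 7 fragments over 1.54 would not have been listed.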

Other observations

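The word TTCNNNGAA, to which STAT dimers bind, occurred within 100 bp of the summit at 0 of the 33 promoter peaks of pathway genes, against 2.74% of all peaks. The window was then widened to 200 bp, a choice made after the data were seen, and 5 of the 30 genes with a peak held the word there, against 6.26% of single peaks. Some of these genes have more than 1 peak, so the shares are not on the same footing, and 45.4% of coding promoter windows hold the word. Of the 5 genes 4 were inhibitors, as were 11 of the 30. At Socs3 it read TTCCTGGAA (chr11:117969239-117969247), 154 bp from the summit. Socs2 had TTCCAGGAA at chr10:95416904-95416912 and again at chr10:95416915-95416923, 150 and 161 bp from the summit, and Socs1 had TTCTTGGAA at chr16:10785981-10785989, 121 bp from the summit. The other inhibitor was Ptpn2, and the remaining gene was Bcl6. These matches are descriptions of the reference sequence.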
